A study of Homo sapiens with 4 samples.

Results

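DMBT1, polymeric immunoglobulin receptor, mucins and other genes of glandular secretion were examined in CAL-27, a cell line established from a squamous cell carcinoma of the human tongue. The genes were taken by platform symbol from a list of 10: DMBT1, PIGR, MUC1, MUC4, MUC15, MUC16, MUC20, AGR2, WFDC2 and TFF3. Of these, 5 had rows in the array table, 6 rows in all out of 42152. DMBT1 had 2 rows, and PIGR, MUC1, AGR2 and TFF3 had 1 each. MUC4, MUC15, MUC16, MUC20 and WFDC2 carried no named row and were not analysed here.

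The cisplatin-resistant group (2 arrays) was CAL-27 that had been selected in cisplatin, a platinum compound that crosslinks DNA, at concentrations rising over time between 1e-07 M and 1e-05 M. The parental group (2 arrays) was CAL-27 without that selection, and both were grown in DMEM with serum. The series calls the arrays of a group biological replicates but does not say whether the resistant arrays came from separate selections or clones, so p-values measure only the spread between these arrays. The list was chosen by the log2 intensity differences between resistant and parental arrays, so for the 5 genes that difference is given as a description, with no test.

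Glandular epithelium lays down a protective coat of mucus, whose mucins are long proteins with dense O-linked sugar chains. MUC1, MUC4, MUC15 and MUC16 are mucins anchored in the cell membrane. DMBT1, also called gp340 or salivary agglutinin, is a secreted protein built from repeated scavenger receptor cysteine-rich domains, which binds bacteria and viruses in saliva and on mucosal surfaces. PIGR carries polymeric IgA and IgM across epithelial cells into secretions. AGR2 is a member of the protein disulfide isomerase family that resides in the endoplasmic reticulum of mucus-secreting cells and is needed for mucin folding, and TFF3 is a trefoil peptide secreted together with mucins.

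In the resistant arrays DMBT1 and PIGR were brighter than in both parental arrays and AGR2 was dimmer, while MUC1 and TFF3 overlapped between the groups. The groups did not overlap for 3 of the 5 genes, 2 with the resistant arrays above and 1 with them below. Among all 15073 named genes 59.0% did not overlap, 27.9% with the resistant arrays above and 31.0% with them below, and nothing is read from the count of the 5. The sequences just before the transcription start of those 3 genes are shown because their intensities moved apart. Each is the 250 bases before the start in RefSeq, build GRCh38.p14, written 5′ to 3′ on the gene's own strand, and capitals mark matches to the letters TATAAA (the core of a TATA box, on either strand).
DMBT1, chr10:122560504-122560753, plus strand: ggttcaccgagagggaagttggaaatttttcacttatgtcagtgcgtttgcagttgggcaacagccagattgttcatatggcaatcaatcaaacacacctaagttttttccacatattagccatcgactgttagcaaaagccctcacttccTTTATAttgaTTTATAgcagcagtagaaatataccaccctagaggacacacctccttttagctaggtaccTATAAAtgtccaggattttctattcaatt
PIGR, chr1:206946467-206946716, minus strand: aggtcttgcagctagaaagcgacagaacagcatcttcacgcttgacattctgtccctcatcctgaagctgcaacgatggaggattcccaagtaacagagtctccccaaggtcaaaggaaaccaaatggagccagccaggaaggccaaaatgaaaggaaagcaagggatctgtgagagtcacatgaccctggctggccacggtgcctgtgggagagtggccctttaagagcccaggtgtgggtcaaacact
AGR2, chr7:16805000-16805249, minus strand: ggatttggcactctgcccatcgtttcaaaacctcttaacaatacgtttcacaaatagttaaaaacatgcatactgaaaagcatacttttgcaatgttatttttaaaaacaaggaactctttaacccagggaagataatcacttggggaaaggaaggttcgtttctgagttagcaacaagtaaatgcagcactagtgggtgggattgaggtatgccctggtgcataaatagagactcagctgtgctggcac

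The DMBT1 window held TATAAA on its own strand 29 bases before the start and the same letters on the other strand at 2 places further upstream. The letters occur on either strand in 10.7% of 35116 windows of this length. The windows of PIGR and AGR2 held no exact match to the letters of 5 motifs searched on both strands. Near matches were not searched, so a variant of a motif may be present in any window. The other 4 motifs, with the share of all windows that hold them, were AP-1 (TGANTCA, 6.57%), STAT (TTCNNNGAA, 6.57%), forkhead (TGTTTNC, 15.5%) and the USF E-box (CACGTG, 6.34%). The DMBT1 window held none of these 4 either. Its G and C content was 39.6%, that of AGR2 40.4% and that of PIGR 52.8%, against a median of 58% over all windows. These letters describe the windows only and were not set against the intensities.

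DMBT1 gave the widest difference of the 5 genes. Its row NM_007329 had intensities of 1797 and 1999 in the resistant arrays, against 24.75 and 29.14 in the parental arrays. The second row, NM_004406, had 364.3 and 259.1 in the resistant arrays, against 37.79 and 34.58 in the parental arrays. In both rows each resistant array lay above each parental array, and both parental values lay under the lower quartile of their array, which was 51.29 and 50.25.

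On the log2 scale NM_007329 averaged 10.89 ± 0.11 in resistant and 4.75 ± 0.17 in parental arrays (SD, n = 2 each), a difference of 6.14. That is 70.6-fold in brightness and ranked 3 among the rises of 15073 genes. NM_004406 averaged 8.26 ± 0.35 in resistant and 5.18 ± 0.09 in parental arrays, a difference of 3.09 or 8.5-fold. No detection calls came with the intensities, so parental DMBT1 near the low end of the arrays has no stated bound and both folds are nominal.

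The rows NM_007329 and NM_004406 are named for different RefSeq transcripts of DMBT1, and their differences lay 3.05 apart on the log2 scale. Among 2816 genes with more than 1 row, the differences of a gene's rows spanned a median of 0.39 with an upper quartile of 0.79. A span at least as wide as that of DMBT1 was seen in 15 genes, 0.533%. DMBT1 contains many near-identical repeats, and the places of the probes along it were not used here, so the transcript behind each row cannot be told apart. With the 2 rows averaged the difference was 4.61. Because the brightest row stands for a gene, a row that is much brighter in 1 group is favoured, and the value of 6.14 is the upper of the 2.

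**Figure D1:**
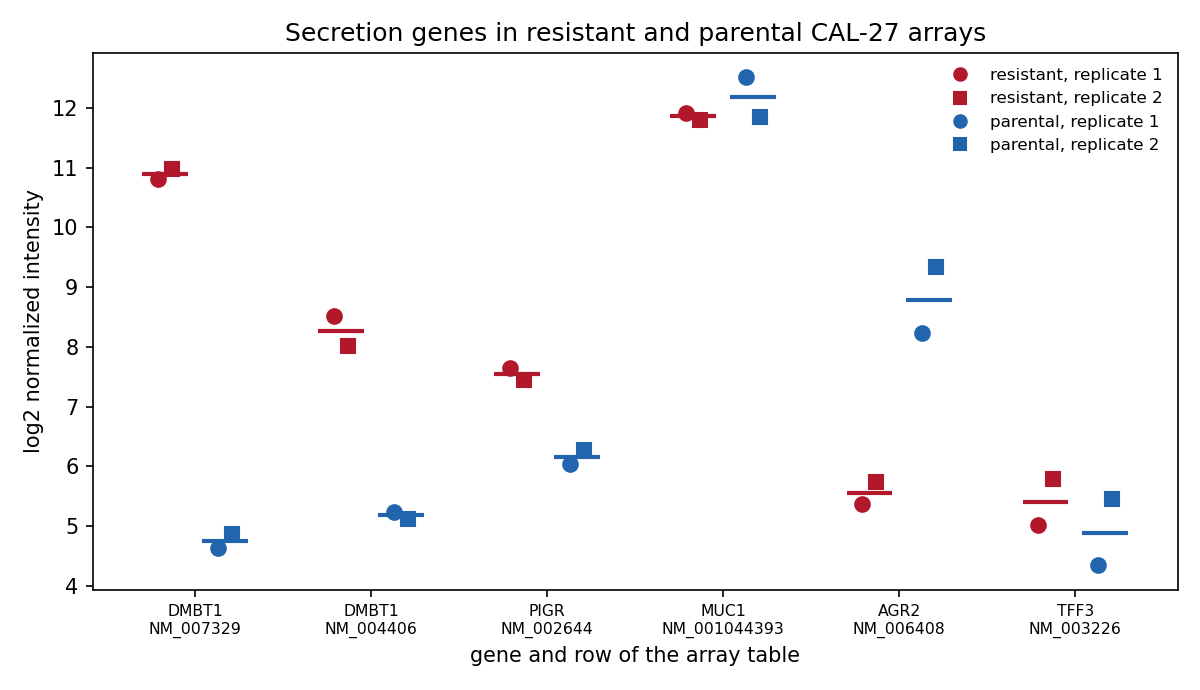
Log2 normalized intensity (vertical axis) of the 6 rows of DMBT1, PIGR, MUC1, AGR2 and TFF3 (horizontal axis), with resistant arrays in red and parental arrays in blue, circles for replicate 1, squares for replicate 2 and bars for group means. Both DMBT1 rows and PIGR are higher in both resistant arrays, AGR2 is lower in both, and the groups overlap for MUC1 and TFF3.

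PIGR, the receptor that releases its extracellular part as secretory component, had intensities of 199.9 and 173.3 in the resistant arrays, against 65.88 and 77.92 in the parental arrays. Both resistant arrays lay above both parental arrays. The mean was 7.54 ± 0.15 in resistant and 6.16 ± 0.17 in parental arrays (log2 intensity, SD, n = 2 each). The difference of 1.38, or 2.6-fold, was wider than the gap between replicates, which was 0.21 in resistant and 0.24 in parental arrays. By size of rise PIGR ranked 853 of 15073.

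MUC1, the membrane mucin of most glandular epithelia, had 3885 and 3539 in the resistant arrays, against 5832 and 3679 in the parental arrays. It was the single gene of the 5 whose 4 values were all bright, and the second parental array lay between the 2 resistant ones. Means were 11.86 ± 0.10 in resistant and 12.18 ± 0.47 in parental arrays (log2 intensity, SD, n = 2 each). The difference of -0.32 was under the gap of 0.66 between the parental replicates, and without parental replicate 1 it was 0.01. A direction for MUC1 could not be given from these arrays.

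AGR2 lay the other way from DMBT1. It had 41.26 and 53.07 in the resistant arrays, against 301.2 and 646.8 in the parental arrays. Both resistant values were close to the lower quartile of their arrays, which was 51.77 and 51.61, and the parental replicates themselves stood 1.10 apart on the log2 scale. The means were 5.55 ± 0.26 in resistant and 8.79 ± 0.78 in parental arrays (log2 intensity, SD, n = 2 each). The difference of -3.24, or 9.43-fold lower in resistant arrays, ranked 99 among the falls of 15073 genes, and this fold too is nominal because the resistant level is dim.

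TFF3, the trefoil peptide, had 32.44 and 54.86 in the resistant arrays, against 20.28 and 43.59 in the parental arrays. The groups overlapped, and 3 of the 4 values lay under the lower quartile of their array. The difference of 0.50 was under the gap between replicates, 0.76 in resistant and 1.10 in parental arrays. It was -0.05 without parental replicate 1 and 1.06 without parental replicate 2, so no direction could be given.

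**Figure D2:**
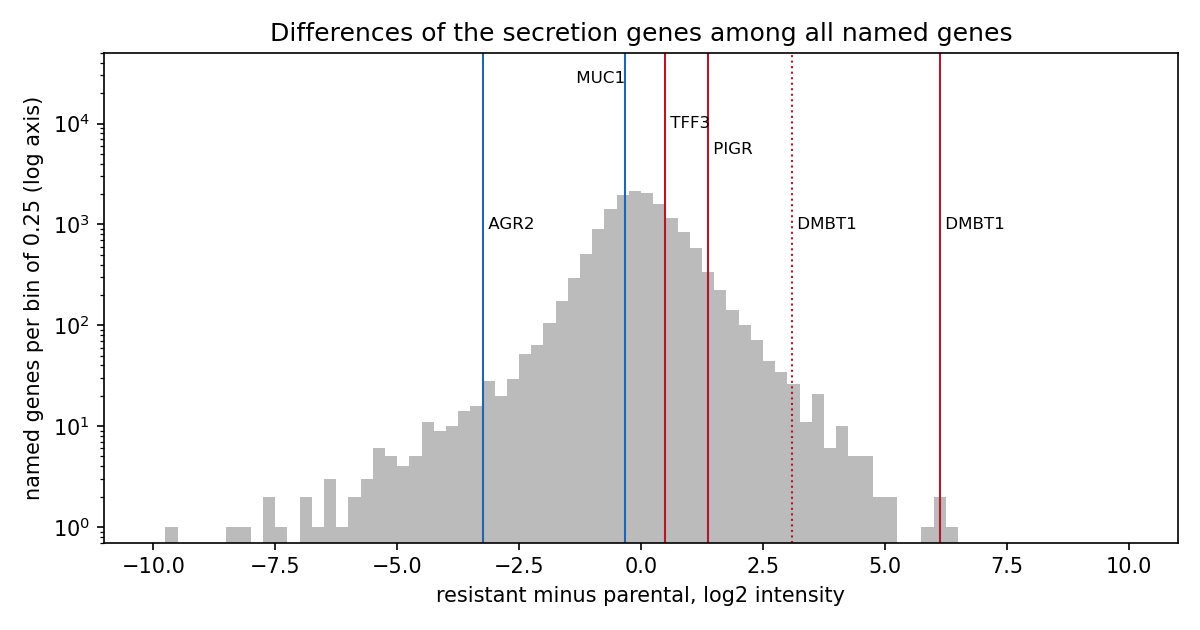
Number of named genes (vertical log axis) by resistant minus parental difference in log2 intensity (horizontal axis, bins of 0.25), with vertical lines at the 6 rows described, red above 0 and blue below 0, and the second DMBT1 row dotted. DMBT1 at 6.14 lies at the right edge of the distribution, AGR2 at -3.24 in its left tail, and MUC1 and TFF3 near its centre.

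The genes whose 4-array profile was closest to that of DMBT1 NM_007329 were sought over the 15068 other named genes that are not on the list. Likeness was the Euclidean distance between log2 profiles after each gene's own mean was subtracted. COXFA4L3 was closest with a distance of 0.447, followed by GIP at 0.47, CSF2 at 0.95, CCND2 at 0.976 and CDH5 at 1.19. The distance of COXFA4L3 holds for its brighter row, with a difference of 6.43, whereas its other row differed by 3.65. GIP encodes an incretin hormone of the gut, CSF2 the cytokine GM-CSF, CCND2 cyclin D2 and CDH5 the cadherin of vascular endothelium. GIP had 1746 and 1400 in the resistant arrays, against 23.01 and 19.68 in the parental arrays, so it too was dim in parental cells. CCND2 had 20560 and 20030 in resistant arrays, against 522.1 and 604.8 in parental arrays, a profile of similar shape at other intensities. With 4 points in 2 groups, the distance measures mostly the size of the difference between the groups, and the 5 genes lie on chromosomes 15, 17, 5, 12 and 16, none on chromosome 10 with DMBT1.

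**Figure D3:**
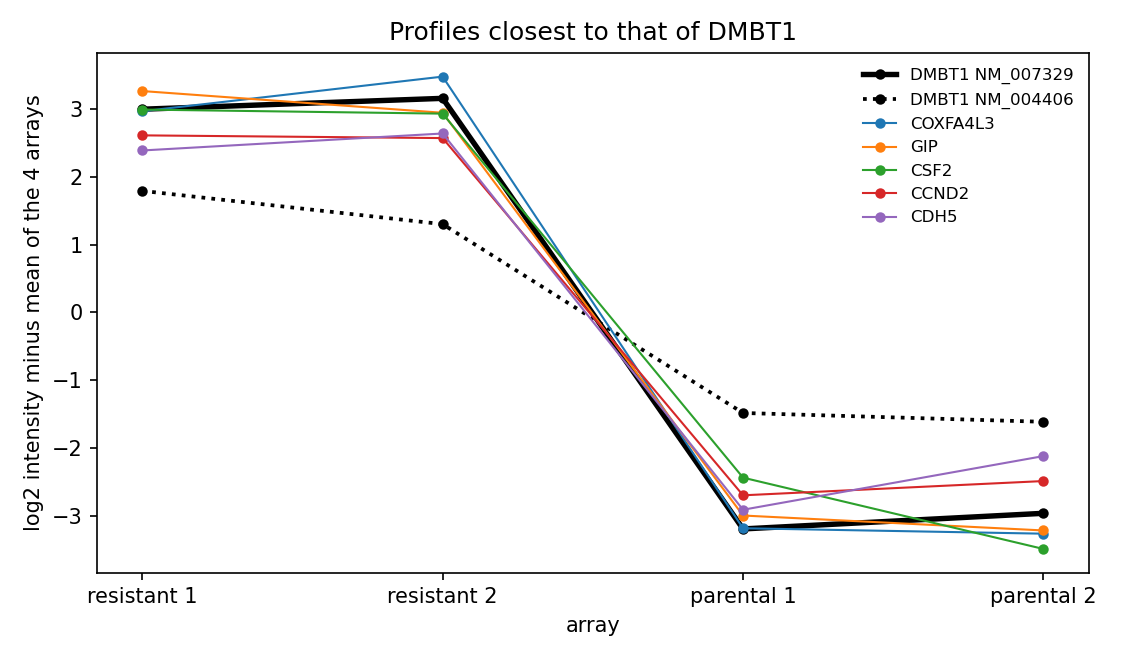
Log2 intensity minus its mean over the 4 arrays (vertical axis) in each array (horizontal axis) for both DMBT1 rows and the 5 genes with the nearest profiles. The 5 genes were picked for nearness to row NM_007329, so their likeness to that row is by construction. Row NM_004406 has a smaller step between resistant and parental arrays.

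Neighbours on the chromosome were set beside the 5 genes. The nearest measured protein-coding gene was taken on either side of each gene. Of the 10 neighbours of DMBT1, PIGR, MUC1, AGR2 and TFF3, 0 passed at an adjusted p of 0.05, where 6.10% of all named genes passed. At an unadjusted p under 0.05 there were 2, where 28.2% of all named genes passed. Limma with its prior variance following intensity (the intensity prior below) called 3, against 21.5% of all named genes. These counts are near the shares over all genes, and nothing is read from them. The 8 neighbours of the genes without rows also gave 0 calls, with 0 at an unadjusted p under 0.05 and 0 with the intensity prior, against the same shares of 6.10%, 28.2% and 21.5%.

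Beside DMBT1 lie HTRA1, a secreted serine protease, and C10orf120. HTRA1 had 1486 and 1336 in resistant arrays, against 2779 and 2373 in parental arrays, a difference of -0.87 ± 0.20 on the log2 scale (± SE). It missed the threshold (adjusted p = 0.0922) and passed with the intensity prior (0.00495). C10orf120 was dim in all arrays and differed by -0.09 ± 0.38. Neither difference was near the 6.14 of DMBT1. DMBT1 was listed for the size of its difference, so nothing is read from that contrast.

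PIGR lies between FCMR and FCAMR, which also encode receptors for immunoglobulins. FCMR, the IgM receptor, had 379 and 477 in resistant arrays, against 120.8 and 159.3 in parental arrays. Its difference of 1.62 ± 0.26 had the sign of that of PIGR and just missed the threshold (adjusted p = 0.0521), whereas the intensity prior gave 0.01. FCAMR, the receptor for IgA and IgM, overlapped between the groups and differed by -0.45 ± 0.46 (adjusted p = 0.585).

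Beside AGR2 lie its paralogue AGR3 and TSPAN13, a tetraspanin. AGR3 had 16.24 and 20.98 in resistant arrays, against 120.6 and 15.42 in parental arrays, so 1 parental array alone was higher and the groups overlapped. Its difference was -1.22 ± 1.08 (adjusted p = 0.522), and 0.26 without parental replicate 1. The value for TSPAN13 was -0.67 ± 0.26 (adjusted p = 0.201), which the intensity prior took to 0.0494. TFF2, the trefoil gene beside TFF3, overlapped between the groups and differed by 0.35 ± 0.52, and ABCG1 on the other side by -0.11 ± 0.18. Next to MUC1, KRTCAP2 differed by -0.19 ± 0.21 and THBS3 by 0.27 ± 0.22, and neither passed.

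Genes related to the 5 by family, partner or pathway moved in both directions. In 8 lists of such genes, which leave out the 10 themselves, 220 of 288 genes were measured, 15 rose and 13 fell by limma's test over all genes. That is 12.7%, against 6.10% of all named genes (3.26% higher and 2.83% lower), and the median difference was 0.08 against -0.03. With the intensity prior 40 were higher and 29 lower, where 9.93% of all genes were higher and 11.5% lower. In limma's test the share called by list ran between 0.00%, for the disulfide isomerase family, and 28.6%, for other mucins and mucin-like genes. The lists were drawn up with earlier results of these data known, so nothing is read from these shares. Each count of calls from the constant prior becomes 0 when any 1 of the 4 arrays is left out.

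Among other mucins and mucin-like glycoproteins, 4 of 21 measured genes rose, 2 fell and 15 did not pass, with a median difference of 0.54. The intensity prior called 5 higher and 2 lower. MUC2, the gel-forming mucin of intestinal goblet cells, had 483.5 and 443.3 in resistant arrays, against 70.49 and 102.1 in parental arrays, and rose by 2.45 ± 0.26 (adjusted p = 0.0303). The sialomucin genes PODXL (1.99 ± 0.18) and CD164 (1.48 ± 0.22) rose too, as did MCAM, an adhesion molecule also known as MUC18 (2.25 ± 0.23). After median centring of the arrays CD164 did not pass (adjusted p = 0.0501).

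PDPN, the mucin-type glycoprotein podoplanin, fell by 2.69 ± 0.41, with a second row at -4.38, and with its rows averaged it did not pass (adjusted p = 0.0837). MXRA5, a matrix gene that is no mucin although it stood on the list, fell by 3.04 ± 0.24. MXRA5 had 36.88 and 45.43 in resistant arrays, under the lower quartile of each, so the size of its fall is nominal. None of 4 other numbered mucin genes passed. These were singled out once their values had been seen. MUC5B differed by -0.88 ± 0.25, MUC6 by 0.63 ± 0.29, MUC7 by -1.13 ± 0.58 and MUC13 by 0.86 ± 0.67. MUC2 was thus the 1 of these 5 numbered mucin genes that passed.

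Enzymes that build the O-linked sugars of mucins gave 2 higher and 2 lower calls among 39 measured genes, 10.3%, and 35 did not pass. The intensity prior raised these counts to 6 and 5. GALNT14, a transferase that starts O-glycans, had 252.8 and 293.7 in resistant arrays, against 32.86 and 18.69 in parental arrays, and rose by 3.46 ± 0.35. GALNT3, another starting transferase, had 343 and 301 in resistant arrays, against 836.4 and 904.7 in parental arrays, and fell by 1.44 ± 0.19. ST6GALNAC2, which adds sialic acid to short O-glycans, fell by 2.64 ± 0.20, and the sulfotransferase gene CHST5 rose by 2.02 ± 0.20. GALNT14 and CHST5 (34.7 and 41.35) lay under the lower quartile of both parental arrays, so the sizes of their rises are nominal. The 2 starting transferases that passed thus went opposite ways.

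Regulators of secretory cells and genes of the secretory pathway gave 1 higher and 3 lower calls among 31, 12.9% against 6.10% of all named genes. SOX9, a transcription factor of ducts and glandular progenitors, rose by 1.37 ± 0.18. KLF5, an epithelial transcription factor, fell by 2.07 ± 0.28. RAB3D, a GTPase of secretory granules, fell by 2.04 ± 0.19, and CLCA2, a chloride channel regulator of squamous cells, fell by 3.63 ± 0.25. CLCA2 had 32.44 and 28.16 in resistant arrays, under the lower quartile of each, so the size of its fall is nominal. With the intensity prior 7 of the 31 were higher and 6 lower, and the median difference was 0.05. No lean in either direction is read from these calls.

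Of 44 measured products of salivary and airway secretion 5 rose, 3 fell and 36 did not pass, and 5 were higher and 5 lower with the intensity prior. ZG16B, a lectin of saliva and tears, had 2174 and 1876 in resistant arrays, against 163.3 and 226.3 in parental arrays, and rose by 3.39 ± 0.25 (adjusted p = 0.0188). AZGP1, the zinc-binding glycoprotein of many secretions, had 533.8 and 593.2 in resistant arrays, against 21.02 and 45.97 in parental arrays, and rose by 4.18 ± 0.44. Both parental values of AZGP1 lay under the lower quartile of their array, so the size of its rise is nominal. LCN2, an iron-chelating defence protein, rose by 3.99 ± 0.19 and CST6, a cystatin, by 2.21 ± 0.23. The fifth, AMY1A, lies outside the rule for named genes and was added after its value was seen. It rose by 1.56 ± 0.23, but its near-identical amylase copies may share its probes.

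SLPI, WFDC5 and CA2 were the products that fell. SLPI, the secretory leukocyte protease inhibitor, fell by 1.93 ± 0.20, and WFDC5, another protein with the WAP domain that SLPI and WFDC2 carry, fell by 4.45 ± 0.26. Other WFDC genes on the list did not pass and went both ways. WFDC10B differed by 1.34 ± 0.24, WFDC13 by 1.71 ± 1.04, WFDC1 by 1.03 ± 0.65 and WFDC12 by -0.55 ± 0.36. CA2, a carbonic anhydrase, fell by 1.74 ± 0.19. TFF1, singled out after its value was seen, overlapped between the groups as TFF2 and TFF3 did, with a difference of -0.18 ± 0.40, so none of the 3 measured trefoil genes separated the groups. TFF1 and TFF2 did not pass, and TFF3 was not tested. TFF2, with 61.82 and 39.87 in resistant arrays against 25.41 and 59.49 in parental arrays, lay near the lower quartiles, as TFF3 did. Overlap at such dim levels says little about these genes.

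**Figure D4:**
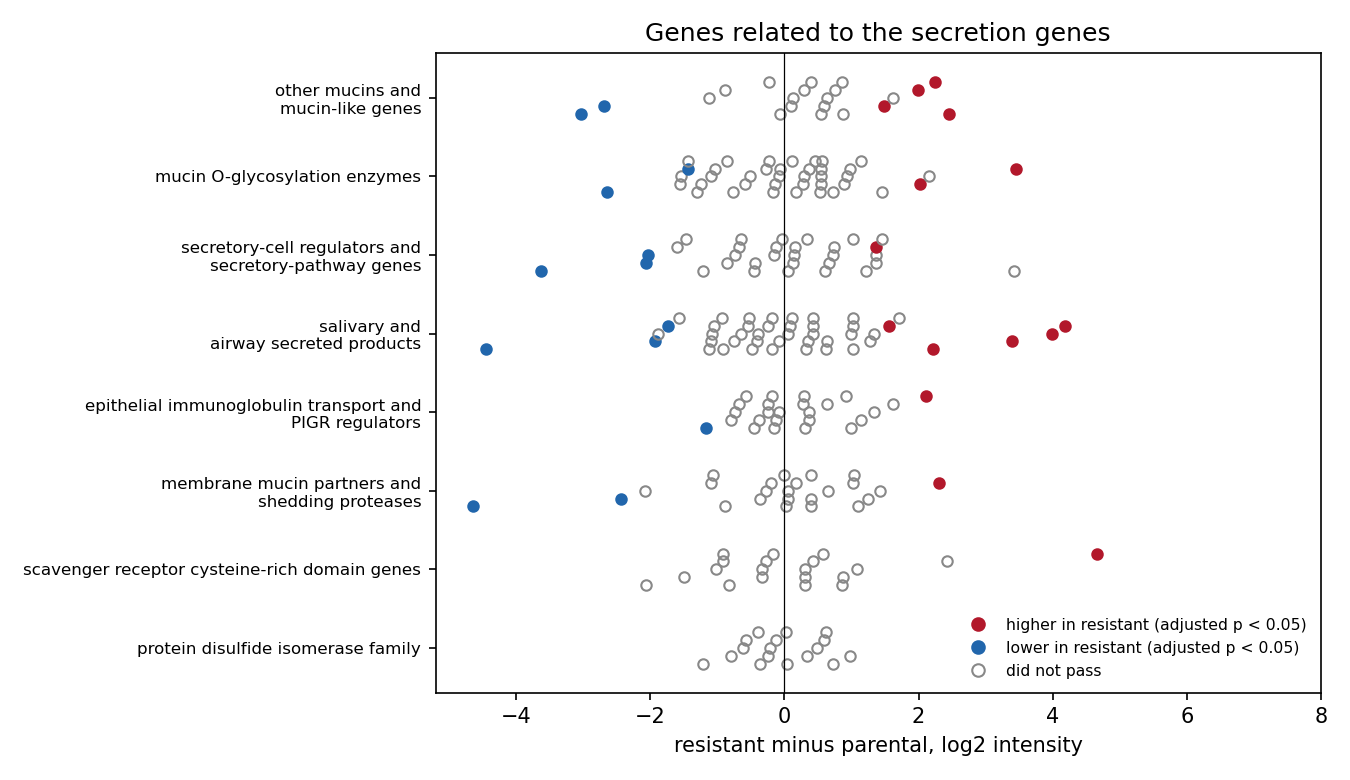
Resistant minus parental difference in log2 intensity (horizontal axis) of each measured gene in 8 lists related to DMBT1, mucins and secretion (rows), with genes past an adjusted p of 0.05 filled red where higher and blue where lower. Filled points lie on both sides of 0 in 6 of the 8 lists, the exceptions being the scavenger receptor list, with TMPRSS2 alone, and the disulfide isomerase list, with none.

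Genes of immunoglobulin transport and of PIGR regulation gave 1 higher and 1 lower call among 25, and 5 higher and 4 lower with the intensity prior. RAB3B, a vesicle GTPase that binds PIGR, had 1287 and 1641 in resistant arrays, against 283 and 401.3 in parental arrays, and rose by 2.11 ± 0.28 (adjusted p = 0.0409). IFNGR1, a chain of the interferon gamma receptor, fell by 1.17 ± 0.18. Among 24 partners of membrane mucins and shedding proteases, ICAM1, an adhesion molecule that binds MUC1, rose by 2.31 ± 0.19. NHERF1, a scaffold of the apical membrane, fell by 2.43 ± 0.25 and PTPRZ1, a receptor phosphatase, fell by 4.64 ± 0.30, and 21 did not pass. PTPRZ1 had 20.53 and 13.89 in resistant arrays, under the lower quartile of each, so the size of its fall is nominal. Under the intensity prior 6 of the 24 were higher and 4 lower.

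Families of DMBT1 and AGR2 were searched in the same fit. Of 20 other genes with scavenger receptor cysteine-rich domains, 1 rose, 0 fell and 19 did not pass, 5.00% against 6.10% of all genes. With the intensity prior 4 were higher and 1 lower. The gene that rose was TMPRSS2, a membrane serine protease, with 2210 and 2420 in resistant arrays, against 80.01 and 105 in parental arrays, a rise of 4.66 ± 0.23 (adjusted p = 0.0165). Of 17 other genes of the protein disulfide isomerase family and its oxidases limma called 0, with 3 at an unadjusted p under 0.05, and the intensity prior called 2 higher and 2 lower. ERO1B (0.98 ± 0.24, adjusted p = 0.0963) and TXNDC5 (-0.79 ± 0.19, adjusted p = 0.0987) had the smallest p. TXNDC5 passed with the intensity prior (adjusted p = 0.00389) and ERO1B did not (adjusted p = 0.113). With 1 row per gene the 17 differences ran between -1.22, for AGR3, and 0.98, and that of AGR2 itself was -3.24. Another row of TXNDC5 differed by -1.35.

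Markers of cell type were set beside these values. Of 21 squamous markers 16 fell and 0 rose, and their mean log2 intensity was 8.58 and 8.64 in resistant arrays, against 12.18 and 12.27 in parental arrays. KRT14, for one, fell by 6.28 ± 0.19. The 18 measured markers of simple and ductal epithelium averaged 9.99 and 10.01 in resistant arrays, against 10.12 and 10.15 in parental arrays. In that list CLDN3 (2.66 ± 0.19) and ST14 (1.50 ± 0.18) rose, AQP3 (-5.66 ± 0.20) and FXYD3 (-3.75 ± 0.18) fell, and 14 did not pass. The list's median difference was 0.33, and the intensity prior called 8 higher and 2 lower. Its summed intensity was 125600 and 122500 in resistant arrays, against 97280 and 98150 in parental arrays, so the sum and the mean log2 intensity moved in opposite directions. The lower squamous markers thus moved with the higher DMBT1 and PIGR and the lower AGR2, and their part in those differences was not tested.

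Of 13 leukocyte and 7 fibroblast markers limma called 0, with 3 and 1 at an unadjusted p under 0.05, and the intensity prior called 2 and 0. The leukocyte markers averaged 7.54 and 7.30 in resistant arrays, against 7.44 and 6.99 in parental arrays, and the fibroblast markers 5.54 and 5.37 in resistant arrays, against 5.62 and 5.41 in parental arrays. CDH5, which is also among the profiles nearest to DMBT1, was the 1 endothelial marker of 8 that rose, by 5.02 ± 0.34, and 7 did not pass. CDH5 had 14.32 and 24.7 in parental arrays, under the lower quartile of each, so the size of its rise is nominal. In bulk RNA, a change in the number of cells that make a transcript and a change in the amount per cell cannot be told apart.

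Across all rows the median intensity of an array was 148.7 and 149.9 in resistant and 141.2 and 143 in parental arrays. Log2 intensities correlated at r = 0.946 between the resistant and 0.921 between the parental replicates, across rows that are not independent. Between a resistant and a parental array r was 0.890 to 0.906, not far under the value for the parental replicates. For rows with a mean log2 under 6, where TFF3 lies, the difference between replicates had an SD of 1.09 in resistant and 1.30 in parental arrays. For rows of 12 and over, where MUC1 lies, it was 0.31 and 0.37 in the same order. With 2 arrays a group, precision is limited throughout by their number.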

How the data were processed

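The 4 arrays (NimbleGen, 1 colour) held RNA of resistant and parental CAL-27. Per the labels' protocols, cDNA was primed with oligo-dT, made double-stranded and labelled with Cy3. Both strands carry dye, so antisense transcripts cannot be told apart. The deposited values are normalized intensity values on a linear scale. RMA produced them, per the submitters' processing notes; its version, row filter and build are not given in the sources used here. Values were log2-transformed, without further scaling or filter. Gene names came from the platform annotation (17899 rows) and RefSeq accessions (674 rows), updated to current symbols; 23579 rows stayed unnamed. For tests the row with the highest mean stood for its gene (15073 genes, 2816 with several rows). The test was limma 3.58.1 (R 4.3.3), using its linear fit and moderated statistics, a constant prior variance and no covariate. P-values were adjusted by Benjamini-Hochberg over all named genes, and 0.05 was the threshold. Each difference is resistant minus parental, ± limma's moderated SE. Members and lists were chosen with earlier results of these data known, and the members got no test. Named genes were all rows of members, the called genes of each list with the smallest p (up to 4 each way, or the 2 smallest p where none was called), the 5 profiles nearest to DMBT1, and the flanking genes, given by name for members with rows. Scripts were tested on simulated data. Promoter windows came from RefSeq (GRCh38.p14), and the motifs were chosen after the member differences were known.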

Additional observations from a re-analysis of the deposited data

How the results depend on the processing

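Median centring and quantile normalization moved each member's difference by less than its replicate spread, and the median of all genes from -0.03 to -0.10 and -0.04. With log2(intensity + 50), which compresses dim values by construction, the differences were 4.66 (DMBT1 NM_007329), 2.05 (DMBT1 NM_004406), 0.96 (PIGR) and -2.35 (AGR2). With its rows averaged DMBT1 was 4.61. Leaving out 1 array gave 6.02 to 6.26 and 2.84 to 3.33 for the DMBT1 rows, 1.26 to 1.50 for PIGR, -3.79 to -2.69 for AGR2, -0.65 to 0.01 for MUC1 and -0.05 to 1.06 for TFF3.

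The 919 genes called over all genes (492 higher, 427 lower) became 3234 with the intensity prior, 2106 with log2(intensity + 50) and 2120 among genes with a mean log2 of at least 6. Over all rows limma called 0 (7896 at an unadjusted p under 0.05). Median centring gave 458 higher and 507 lower. The 28 calls in the secretion-related lists became 69, 56 and 59 under the first 3 settings, in that order, and 13 higher and 16 lower after median centring. Without 1 array, which leaves 1 residual degree of freedom and assumes the lone array to vary like the other group, limma called 0 in each case (2536 to 4042 at an unadjusted p under 0.05), whereas with the intensity prior, leaving out resistant replicate 1, resistant replicate 2, parental replicate 1 or parental replicate 2, it called 1899, 1970, 2797 and 2404 genes and 44, 50, 67 and 57 list genes.

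The replicate numbers are shared between the groups by label only. Deviations of same-numbered arrays from their group means correlated at 0.142 across genes. With the replicate number as a block, limma called 0 genes and 0 list genes (3882 genes at an unadjusted p under 0.05), and jointly with the intensity prior 3500 and 70.

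Among named neighbours, none of which passed, the sign turned without 1 array for C10orf120 (-0.42 to 0.24), FCAMR (-0.93 to 0.04), AGR3 (-2.71 to 0.26) and TFF2 (-0.26 to 0.97). The causes were not tested.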
